A study of Mus musculus with 4 samples.

Results

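Chromatin accessibility at the C-type lectin and Siglec genes was described in MPP3 cells, multipotent progenitors of mouse bone marrow that lean towards granulocytes and monocytes. The genes were taken by name: protein-coding genes whose symbol begins with Clec, Klr or Siglec, together with Mrc1, Mrc2, Cd22 and Cd33. They numbered 71 of 21900 protein-coding genes, and 69 of them could be placed on a chromosome of the mouse build mm10. Klra16 and Klra23 could not be placed and were not analysed here. Of the placed genes, 51 lay on chromosome 6, 7 on chromosome 7 and 11 elsewhere. The rule itself uses no measured value, but the genes were chosen with earlier results of these data known.

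ATAC-seq, in which a transposase cuts and tags open chromatin, had been run on 4 libraries of MPP3 cells sorted from WT-iMOS mice 3 months old. The genotype label was WTiMOS_T1 for the T1 group and WTiMOS_T2 for the T2 group, each with replicates 1 and 2. All 4 libraries carried the WT-iMOS name, and neither that name nor T1 and T2 is explained in the sources used here. The stated purpose was to study what Bcl11a, a zinc-finger repressor, does within MPP3 cells. Nothing said whether the replicates came from separate mice, so the spread between them may be technical.

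C-type lectin receptors are surface proteins, many of which bind sugars of fungi and bacteria, debris of dead cells or the body's own glycans. Activating members signal through adaptors with an ITAM motif and the kinase SYK, whereas inhibitory members carry an ITIM motif that recruits phosphatases. The Klr genes encode the lectin-like receptors of natural killer (NK) cells, and several genes of the Clec2 family encode their ligands. Siglecs bind sialic acid, and most of them are inhibitory. The majority of these receptors are known from mature myeloid cells, NK cells and B cells, not from progenitors.

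The authors' peaks, called in each library, were joined into regions where they shared at least 1 bp. A region was counted for a gene when the midpoint of 1 of its peaks fell in the gene body or within 20 kb of it. This gave 237 regions, of 77914 in all and of 63195 near any protein-coding gene, and 42 of the 237 were counted for at least 2 of the lectin and Siglec genes. At least 1 region was found at 62 of the 69 genes (89.9%, against 81.4% of protein-coding genes), and 52 genes (75.4%) had a region present in all 4 libraries (77.2% of protein-coding genes). The median was 4 regions per gene, as for protein-coding genes in general. The 7 genes without a region were Clec4b1, Klra2, Klra7, Klra8, Klrc1, Klrc2 and Klrc3.

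Of the 237 regions, T1 replicate 1 had a peak at 179 and T1 replicate 2 at 160, while the T2 replicates had peaks at 196 (the first) and 184 (the second). The lowest T2 library thus stood above the highest T1 library, with 169.5 ± 13.4 regions in T1 and 190 ± 8.49 in T2 (SD, n = 2 per group). The difference of 20.5 regions gave an exact permutation p of 0.333 (two-sided), the smallest that 2 libraries against 2 allow. The deposited lists differed in length in the same direction, with 58454 and 54045 peaks in T1 and 66764 and 62704 in T2. Regions near any protein-coding gene went the same way, with peaks at 75.4 and 69.6% of them in T1 and 85.6 and 79.9% in T2. The shares of the 237 were close to these, at 75.5 and 67.5% in T1 and 82.7 and 77.6% in T2. With the lists shortened to equal length the difference was -1 region (exact permutation p = 1). Sequencing depth is unknown, since the lists hold no read counts.

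All 4 libraries shared 128 of the 237 regions (54.0%, 95% Wilson interval 47.6 to 60.2%), where 58.6% of regions near any protein-coding gene were shared. A peak in both T1 libraries and in neither T2 library, called T1-only here, was found at 7 regions (2.95%, Wilson interval 1.44 to 5.97%), where the background was 2.22%. T2-only regions, defined the other way round, numbered 15 (6.33%, Wilson interval 3.87 to 10.2%), where the background was 6.56%. Both intervals hold the background share. The intervals cover counting error over regions, which are not replicates. The T1-only regions touched 8 genes (11.6%, against 8.24% of protein-coding genes) and the T2-only regions 15 genes (21.7%, against 22.4%), and 47 genes had neither. When 1 library was left out its partner decided alone, and the counts rose. Dropping T1 replicate 1 gave 14 T1-only and 32 T2-only regions, and dropping T1 replicate 2 gave 16 and 21. Dropping T2 replicate 1 gave 13 and 25, and dropping T2 replicate 2 gave 10 and 33. In these bulk data a site open in fewer cells and a site less open in each cell cannot be told apart.

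**Figure D1:**
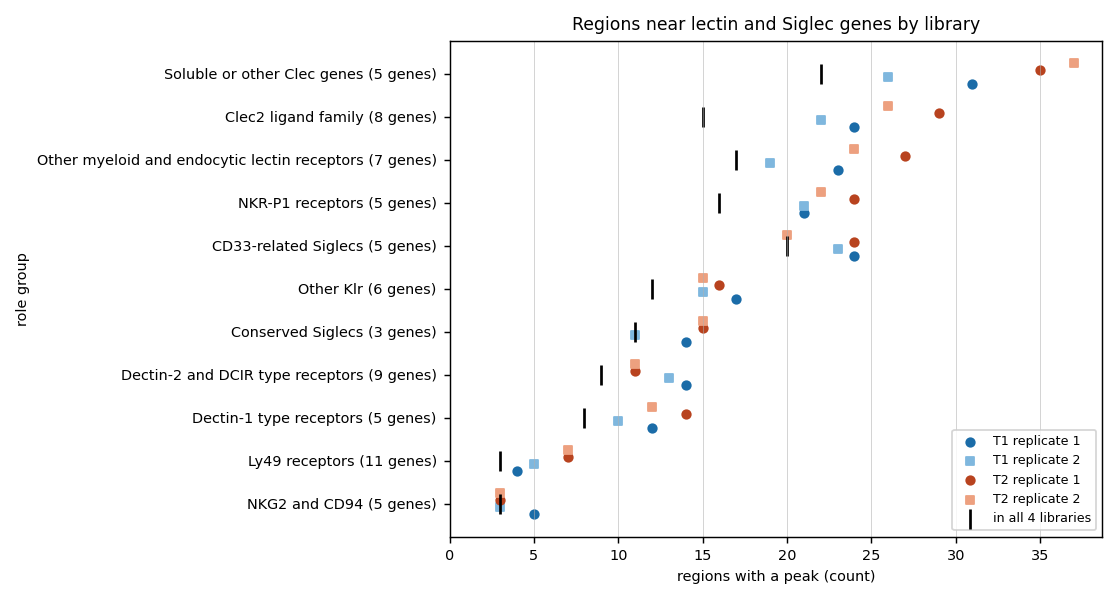
The x axis gives the number of regions with a peak, and each row is a role group of lectin or Siglec genes. Points are single libraries and the black bar marks the regions that all 4 libraries share. The Dectin-2 and DCIR group stands higher in both T1 libraries (14 and 13 regions) than in both T2 libraries (11 and 11). Several groups stand higher in T2, among them the soluble or other Clec genes (35 and 37, against 31 and 26 in T1) and the Clec2 ligand family (29 and 26, against 24 and 22). Regions near all protein-coding genes, not plotted, also stand higher in T2 (54111 and 50516, against 47673 and 43977 in T1).

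The promoters showed which of these genes carried an open start site in MPP3 cells. RefSeq promoter entries on GRCm38.p6, the assembly mm10 names, run from 250 bases before a gene's start to 50 after it and matched 56 of the 69 genes. A peak of every library overlapped the promoter of 10 genes (17.9%, against 56.6% of 17492 protein-coding genes with an entry), and no library had one at 38 genes (67.9%, against 37.6%). The 10 were Cd33, Siglecg and Siglech among the Siglecs, Clec4a1, Clec4a3 and Clec12a among the myeloid lectin receptors, Clec2d and Clec2l among the Clec2 genes, Klrg2, and Clec16a. Clec5a and Clec7a had a promoter peak in 3 libraries, both lacking it in T2 replicate 2. Clec4d had one in replicate 1 of each group, Clec4e and Cd22 in both T2 libraries, Mrc1 and Siglece in T1 replicate 1 alone, and Clec2h in T2 replicate 2 alone.

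The 2 strongest open promoters belonged to a Siglec of myeloid cells and to an NK receptor ligand. Strength is the authors' −log10 q of a peak over its local background, and it ranks peaks within a list. At Cd33, which encodes a sialic acid receptor of myeloid cells, the promoter peak had −log10 q of 164 and 105 in T1 and 155 and 138 in T2. At Clec2d, which encodes Clr-b, the ligand of the inhibitory NK receptor NKR-P1B, it had −log10 q of 138 and 106 in T1 and 174 and 130.2 in T2. To compare the groups, each region was ranked among the 44274 regions that all 4 lists hold, and the shared percentile is its place from 0 (weakest) to 100 (strongest). For Cd33 the shared percentiles were 94.2 and 90.9 in T1 and 93.1 and 94.1 in T2, and the groups overlapped. For Clec2d they were 91.2 and 91.0 in T1 and 95.1 and 93.0 in T2, with both T2 libraries above both T1 libraries.

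Among the myeloid receptors, the promoter of Clec12a, which encodes the inhibitory receptor MICL, had −log10 q of 98.8 and 97.1 in T1 and 82.4 and 63.8 in T2 and shared percentiles of 84.1 and 89.3 in T1 and 76.8 and 74.6 in T2. Both T1 libraries ranked it above both T2 libraries. Clec4a1 and Clec4a3 belong to the DCIR family of the Dectin-2 cluster. The Clec4a1 promoter had −log10 q of 57.6 and 49.9 in T1 and 21.9 and 32.7 in T2, and its shared percentiles of 69.5 and 72.6 in T1 and 26.0 and 49.2 in T2 put both T1 libraries well above both T2 libraries. The neighbouring Clec4a3 promoter had −log10 q of 59.0 and 56.5 in T1 and 59.2 and 56.6 in T2, with shared percentiles of 70.2 and 76.2 in T1 and 65.5 and 70.7 in T2 that overlapped between the groups. The promoter of Siglecg, an inhibitory Siglec known from B cells, went the other way, with −log10 q of 29.7 and 21.9 in T1 and 56.2 and 39.8 in T2 and shared percentiles of 45.8 and 43.1 in T1 and 63.6 and 57.3 in T2. Siglech, known from plasmacytoid dendritic cells, had a weak promoter peak that ranked higher in T1, with −log10 q of 19.1 and 13.2 in T1 and 10.6 and 9.03 in T2 and shared percentiles of 29.0 and 23.8 in T1 and 6.58 and 7.08 in T2. At Clec16a, which encodes a membrane-associated protein of the mitophagy pathway and not a surface receptor, the shared percentiles of 79.5 and 73.8 in T1 and 74.5 and 77.1 in T2 overlapped, as they did at Clec2l (39.2 and 25.9 in T1 and 30.4 and 38.7 in T2) and Klrg2 (23.1 and 11.6 in T1 and 20.8 and 18.1 in T2).

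**Figure D2:**
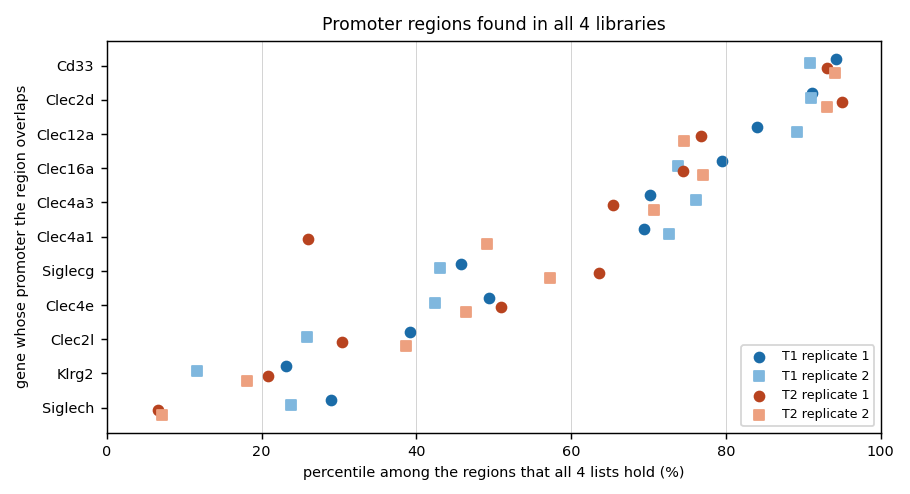
The x axis gives the percentile of a promoter region's −log10 q among the regions that all 4 lists hold, and each row is the gene whose promoter the region overlaps. Points are single libraries. Clec4a1, Clec12a and Siglech have both T1 libraries to the right of both T2 libraries, and Siglecg and Clec2d the reverse. The region at Clec4e is shared by all 4 lists, although only the T2 peaks reach the promoter window itself.

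The promoter sequences of the 8 strongest of the 10 genes are printed below from RefSeq, 5′ to 3′ on the gene's strand, so that their base composition and motifs can be read beside these values. Capitals mark matches, on either strand, to the motifs of 7 blood transcription factors, which are spelled out after the sequences. Capitals that run together belong to overlapping matches, as at Cd33, where RUNX and BCL11A matches overlap.
Cd33, chr7:43533122-43533421, minus strand: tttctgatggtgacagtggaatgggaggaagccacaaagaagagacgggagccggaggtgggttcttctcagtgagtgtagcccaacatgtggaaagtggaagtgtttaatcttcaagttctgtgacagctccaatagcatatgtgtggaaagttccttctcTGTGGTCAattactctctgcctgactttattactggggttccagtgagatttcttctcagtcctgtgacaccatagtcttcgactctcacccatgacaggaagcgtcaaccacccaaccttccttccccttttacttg
Clec2d, chr6:129180365-129180664, plus strand: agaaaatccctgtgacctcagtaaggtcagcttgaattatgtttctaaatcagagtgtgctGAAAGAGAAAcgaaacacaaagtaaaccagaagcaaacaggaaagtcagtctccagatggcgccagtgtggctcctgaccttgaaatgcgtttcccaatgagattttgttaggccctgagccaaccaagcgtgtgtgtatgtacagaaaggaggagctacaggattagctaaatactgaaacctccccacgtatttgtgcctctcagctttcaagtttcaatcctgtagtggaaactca
Clec12a, chr6:129349994-129350293, plus strand: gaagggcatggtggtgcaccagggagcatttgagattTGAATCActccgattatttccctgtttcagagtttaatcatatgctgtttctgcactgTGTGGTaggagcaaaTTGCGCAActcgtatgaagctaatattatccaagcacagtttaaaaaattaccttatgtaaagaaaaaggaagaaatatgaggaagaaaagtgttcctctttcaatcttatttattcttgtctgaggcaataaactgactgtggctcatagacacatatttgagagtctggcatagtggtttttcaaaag
Clec16a, chr16:10545089-10545388, plus strand: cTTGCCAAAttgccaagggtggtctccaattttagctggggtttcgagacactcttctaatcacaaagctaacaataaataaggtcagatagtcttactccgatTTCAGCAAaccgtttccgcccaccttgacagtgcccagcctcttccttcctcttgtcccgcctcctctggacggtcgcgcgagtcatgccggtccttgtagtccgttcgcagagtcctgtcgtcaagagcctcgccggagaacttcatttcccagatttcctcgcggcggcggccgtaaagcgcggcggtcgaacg
Clec4a3, chr6:122952265-122952564, plus strand: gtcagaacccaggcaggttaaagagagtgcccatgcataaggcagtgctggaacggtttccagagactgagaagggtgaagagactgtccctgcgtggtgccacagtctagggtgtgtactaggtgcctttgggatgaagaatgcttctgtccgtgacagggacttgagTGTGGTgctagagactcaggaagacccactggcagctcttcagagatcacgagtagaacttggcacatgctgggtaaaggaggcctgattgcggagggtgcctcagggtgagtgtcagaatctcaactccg
Clec4a1, chr6:122921598-122921897, plus strand: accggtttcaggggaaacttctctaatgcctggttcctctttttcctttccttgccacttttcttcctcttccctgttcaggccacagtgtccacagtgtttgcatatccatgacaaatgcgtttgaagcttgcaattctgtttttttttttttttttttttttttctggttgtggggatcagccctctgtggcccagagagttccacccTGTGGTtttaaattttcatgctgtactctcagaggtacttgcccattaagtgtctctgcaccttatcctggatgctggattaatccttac
Siglecg, chr7:43407989-43408288, plus strand: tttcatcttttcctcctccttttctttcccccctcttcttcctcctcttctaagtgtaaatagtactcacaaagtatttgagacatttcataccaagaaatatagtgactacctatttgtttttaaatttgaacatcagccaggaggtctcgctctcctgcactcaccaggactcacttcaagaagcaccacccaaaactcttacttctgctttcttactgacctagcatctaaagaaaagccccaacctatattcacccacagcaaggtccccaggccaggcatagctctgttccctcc
Clec2l, chr6:38662819-38663118, plus strand: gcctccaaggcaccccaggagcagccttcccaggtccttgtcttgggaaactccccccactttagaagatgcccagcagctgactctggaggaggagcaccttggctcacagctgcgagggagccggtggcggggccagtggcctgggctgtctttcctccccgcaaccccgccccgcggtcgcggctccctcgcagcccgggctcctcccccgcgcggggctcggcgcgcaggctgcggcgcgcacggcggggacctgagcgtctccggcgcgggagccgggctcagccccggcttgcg

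The RUNX motif TGTGGT was in 5 of the 10 open promoters (Cd33, Clec12a, Clec4a3, Clec4a1 and Siglech), in 17 of the 56 promoters of these genes (30.4%) and in 16.8% of the 32851 promoters of the table. The C/EBP motif TTGCNNAA was in 3 of the 10 (Clec12a, Clec16a and Siglech), in 16 of the 56 and in 10.8% of all promoters. Clec12a held matches for RUNX, C/EBP and AP-1 together. The motif TGACCA, bound by BCL11A, was in 1 open promoter, that of Cd33, in 11 of the 56 (19.6%) and in 13.6% of all promoters. The IRF motif (a pair of GAAA cores, 2 bases apart) stood in the Clec2d promoter, in 3 of the 56 and in 3.44% of all. The AP-1 motif TGANTCA was in 10 of the 56 and in 7.81% of all promoters. The motif AGATAA of the erythroid GATA factors was in 3 of the 56 and in 11.2% of all. The PU.1 motif GAGGAAGT was in 0 of the 56 and in 3.20% of all. A match describes these letters only. The median GC content was 48.8% in the 10 open promoters, 40.8% in the other 46 and 52.7% over the whole table, and among the 8 printed it ran from 37.7% at Clec12a to 73.7% at Clec2l.

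The Dectin-1 cluster, whose genes encode receptors for fungal glucans (Clec7a), dead cells (Clec9a) and self ligands, held 2 T2-only regions and no T1-only region among 18, where the backgrounds were 6.56% and 2.22%. Both lay around Clec9a, which encodes DNGR-1, a receptor for the exposed actin of dead cells that marks type 1 dendritic cells. The first, chr6:129406118-129406499, had its midpoint at -2554 bp from the Clec9a start and −log10 q of 23.7 and 21.1 in T2 replicates 1 and 2, and the nearest T1 peak was 583 bp away. The second, chr6:129425884-129426308, had 28.0 and 15.5 and lay between Clec9a and Clec1a, 1793 bp from the nearest T1 peak. Their percentiles within the whole T2 lists were 49.8 and 48.8 for the first and 55.3 and 37.6 for the second, near or below the middle. Clec12b spans both in the RefSeq table. Dendritic cell markers (Xcr1, Zbtb46, Flt3, Batf3, Cd209a, Bst2 and Tcf4) had 71 regions, with 56, 55, 60 and 56 present in T1 replicates 1 and 2 and T2 replicates 1 and 2, 1 T1-only region at Xcr1 and 3 T2-only regions at Tcf4 and Zbtb46, and Cd209a had none. The part of such cells in the result was not tested.

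Of the cluster's 18 regions, 10 were shared (55.6%, against 58.6% of regions near any protein-coding gene). The strongest, chr6:129434267-129434850 inside Clec1a, which encodes the melanin receptor MelLec, had −log10 q of 159 and 137 in T1 and 155 and 125 in T2. A region between Clec2m and Clec12a, chr6:129333662-129334236, had −log10 q of 110.2 and 96.0 in T1 and 145 and 120.1 in T2, with shared percentiles of 86.5 and 89.0 in T1 and 91.6 and 91.5 in T2 that were higher in T2. The Clec7a gene, for the glucan receptor Dectin-1, had 3 regions, and the strongest, chr6:129476659-129477184, had −log10 q of 17.1 and 10.3 in T1 and 22.9 and 15.9 in T2. Its promoter peak had −log10 q of 6.96 and 16.3 in T1 and 11.2 in T2 replicate 1.

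The Dectin-2 and DCIR cluster had T1-only regions and no T2-only region. Its 9 genes encode Dectin-2 (Clec4n), Mincle (Clec4e) and MCL (Clec4d), which bind microbial mannans and glycolipids, and the DCIR and DCAR receptors. Of its 16 regions, 14 and 13 were present in T1 replicates 1 and 2 and 11 in each T2 library. Of the 16, 9 were shared (background 58.6%), 3 were T1-only (background 2.22%) and 0 were T2-only (background 6.56%). The strongest T1-only region, chr6:122946635-122947066, had its midpoint at -5664 bp from the Clec4a3 start, between Clec4a1 and Clec4a3, and −log10 q of 14.3 and 18.4 in T1 replicates 1 and 2. It was the only T1-only region of all 7 with a −log10 q of at least 10 in both libraries. The region at Clec4a4, chr6:122989804-122990347, had 7.71 and 7.30, and the nearest T2 peak was 37054 bp away. The third, chr6:123244130-123244506 inside Clec4n, had 8.74 and 5.18. The regions at Clec4a4 and Clec4n were both lost when peaks needed a −log10 q of 10.

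The neutrophil markers S100a8, S100a9, Ltf, Camp, Ngp, Mmp8 and Cxcr2 had 32 regions, with 25, 27, 25 and 26 present in the 4 libraries. Of the 32, 3 were T1-only (at Cxcr2, S100a8 and S100a9) and none was T2-only, where the backgrounds were 2.22% and 6.56%. The macrophage markers had 10 regions, none of them T1-only or T2-only, and 7, 7, 9 and 7 were present, with Vcam1 and Timd4 at 0. The part of either in the result was not tested.

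Shared regions of the Dectin-2 cluster ranked in both directions. A region between Clec4n and Clec4d, chr6:123260005-123260575, had −log10 q of 52.9 and 40.1 in T1 and 25.0 and 25.0 in T2, and its shared percentiles placed both T1 libraries above both T2 libraries. A region beside Clec4n, chr6:123227348-123228049, had −log10 q of 38.7 and 39.1 in T1 and 75.2 and 49.0 in T2 and ranked higher in T2. The regions at the Clec4e promoter, chr6:123288831-123290214, and inside Clec4d, chr6:123266837-123267419, overlapped between the groups, the first with −log10 q of 32.7 and 21.5 in T1 and 40.6 and 30.6 in T2. Clec4b1 had no region in any library.

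**Figure D3:**
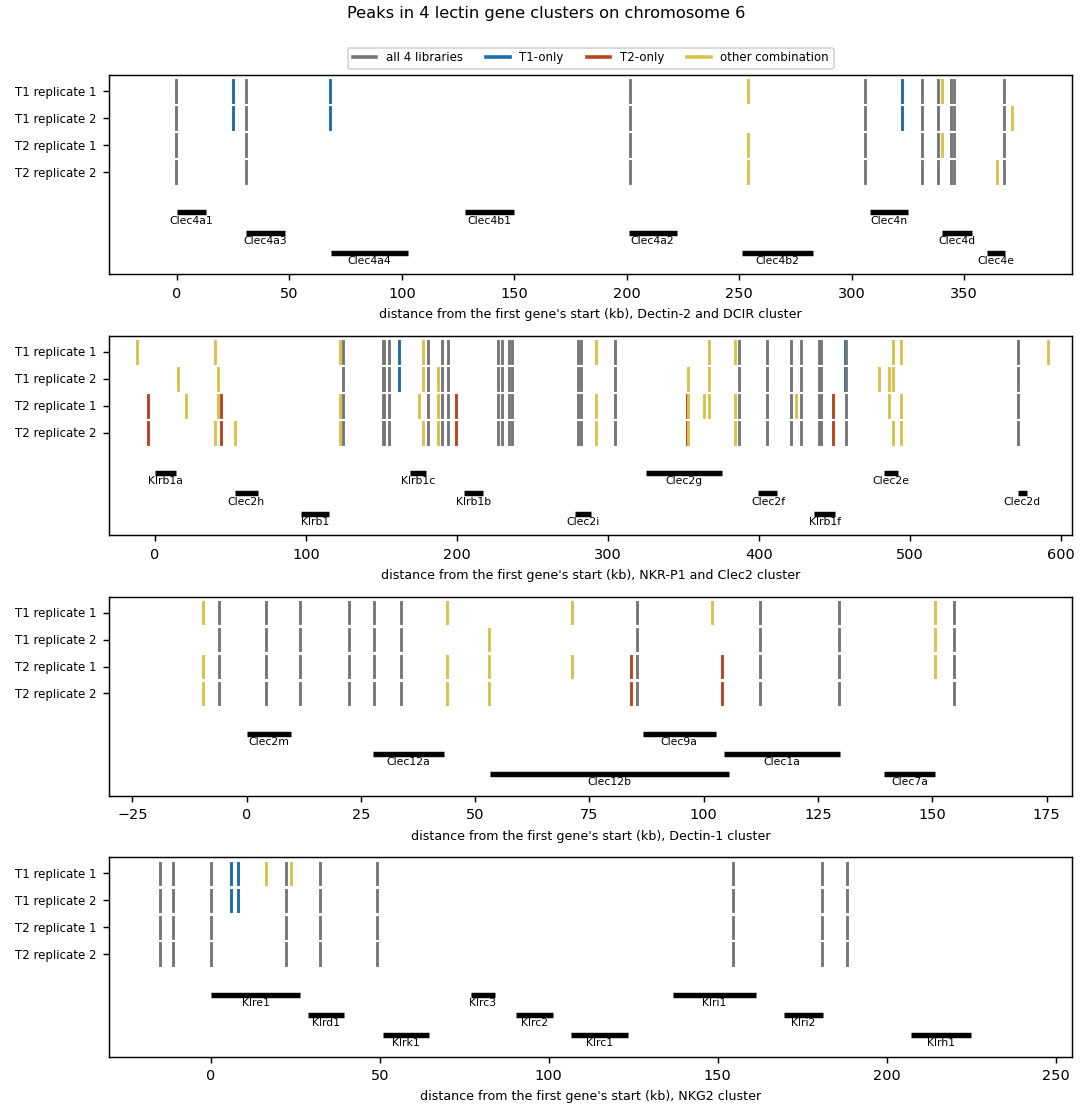
Each panel shows 1 gene cluster of chromosome 6, with distance in kb from the first gene's start on the x axis, a row per library and black bars for genes. Every vertical tick is a region with a peak in that library, coloured by class. The T1-only ticks lie in the Dectin-2 and DCIR cluster (3), the NKR-P1 and Clec2 cluster (2) and at Klre1 in the NKG2 cluster (2), and the 2 T2-only ticks of the Dectin-1 cluster flank Clec9a.

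Among the other myeloid and endocytic receptors, 3 T2-only regions and no T1-only region were found among 30 regions at 7 genes, where the backgrounds were 6.56% and 2.22%. Clec10a encodes the galactose-type lectin MGL1 of macrophages and dendritic cells and had 2 of them. These were chr11:70152960-70153336, with −log10 q of 14.7 in both T2 libraries, and chr11:70179343-70179713, with 14.9 and 19.6. A region in the Clec10a body, chr11:70166189-70166912, was shared, with −log10 q of 76.4 and 62.3 in T1 and 100.1 and 116 in T2 and a higher shared percentile in both T2 libraries. The third T2-only region, chr6:83673373-83673796, was counted for Clec4f, a lectin of liver Kupffer cells, and had 27.0 and 15.9, but it lay inside the neighbouring gene Cd207. At Clec5a, for the myeloid receptor MDL-1, a region inside the gene, chr6:40576044-40576652, ranked higher in T2 with −log10 q of 31.8 and 23.6 in T1 and 52.8 and 38.7 in T2.

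The 2 mannose receptor genes had 14 regions, 10 of them shared (71.4%, against 58.6% of regions near any protein-coding gene). Mrc2, for the collagen receptor Endo180, had a region inside the gene, chr11:105311449-105312234, with −log10 q of 45.6 and 39.0 in T1 and 95.8 and 88.2 in T2 and shared percentiles of 61.7 and 64.7 in T1 and 81.2 and 84.2 in T2, higher in both T2 libraries. Mrc1, for the macrophage mannose receptor CD206, had 4 shared regions in its body, of which 3 ranked higher in T1 and 1 in T2. The strongest of the 3, chr2:14249935-14250429, ranked higher in T1 with −log10 q of 53.0 and 32.9 in T1 and 30.8 and 32.4 in T2, and the 1 other, chr2:14312318-14312937, ranked higher in T2 with −log10 q of 12.0 and 10.7 in T1 and 31.6 and 24.8 in T2. The directions thus differed within a gene. Clec14a, an endothelial lectin, had 1 region, and it ranked higher in T2 with −log10 q of 21.7 and 19.8 in T1 and 40.1 and 37.6 in T2.

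The secreted lectin Clec11a, a growth factor for blood and bone progenitors also called osteolectin, held the strongest region of all 237. This region, chr7:44304519-44305734, covered 1216 bp of the gene and had −log10 q of 213 and 163 in T1 and 236 and 196 in T2, a mean percentile of 98.4 within the 4 whole lists. A second region, chr7:44311873-44312439, had −log10 q of 7.26 and 5.73 in T1 and 27.5 and 12.8 in T2 and ranked higher in T2. The T2-only region of Clec11a, chr7:44292610-44292952, was weak, with 5.73 and 6.95. Clec3b, for the plasma protein tetranectin, also had a weak T2-only region, chr9:123158412-123158678, with 6.24 and 6.44.

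Clec16a was the longest of the genes and had the most regions (27). Of the 27, 14 were shared (51.9%, against 58.6% of regions near any protein-coding gene). Of these 14 shared regions, 8 ranked higher in both T2 libraries and 1 in both T1 libraries, where 25.7% and 26.6% of shared regions near protein-coding genes did so. The region chr16:10713341-10713883 inside the gene is an example, with −log10 q of 13.1 and 14.5 in T1 and 33.6 and 36.3 in T2 and shared percentiles of 16.5 and 26.9 in T1 and 43.0 and 53.6 in T2. With T1 replicate 1 or T1 replicate 2 dropped, T2 stood above at 9 of 14 and 10 of 18 regions and T1 at 4 and 3, and with T2 replicate 1 or T2 replicate 2 dropped, T2 stood above at 8 of 14 and 9 of 15 and T1 at 3 and 2. Its T2-only region, chr16:10536163-10536537, was the weakest of the 15, with 2.77 and 3.96, and lay inside the neighbouring gene Dexi. With the lists shortened to equal length, Clec16a had 1 more T1-only than T2-only region, the opposite sign.

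The strong regions counted for Clec3a and Clec18a lay inside other genes. The first, chr8:114439340-114440476 inside Wwox, had −log10 q of 156 and 121 in T1 and 159 and 154 in T2. The second, chr8:111055964-111057154 inside Exosc6, had −log10 q of 168 and 134 in T1 and 119 and 126 in T2. Clec18a had no promoter peak in any library.

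The NKR-P1 and Clec2 cluster holds receptors and their ligands side by side. NKR-P1 receptors (Klrb1 genes) sit on NK cells and recognise Clr proteins encoded by Clec2 genes on other cells. Of the 10 genes of the cluster with a promoter entry, 8 had no promoter peak in any library, where the background was 37.6%. These were all 5 receptor genes and the ligand genes Clec2e, Clec2g and Clec2i. The ligand gene Clec2d had a promoter peak in all 4 libraries, and Clec2h in 1. The cluster held 5 T2-only and 2 T1-only regions among 50, and 22 were shared, where the backgrounds were 6.56%, 2.22% and 58.6%.

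The 2 strongest T2-only regions of the 15 lay beside receptor genes of this cluster. The first, chr6:128808619-128808848, was counted for Klrb1b, which encodes the inhibitory receptor NKR-P1B, and had −log10 q of 34.4 and 33.2 in T2 replicates 1 and 2, with the nearest T1 peak 5212 bp away. The second, chr6:128604566-128604872 at Klrb1a, had 28.3 and 23.5, with the nearest T1 peak 7070 bp away. Klrb1f, for the receptor of Clr-g, had a region of each class. The T2-only region, chr6:129058000-129058478 inside the gene, had 25.7 and 14.7 and was lost when peaks had to cover at least 0.5 of a region, and the T1-only region, chr6:129065796-129066125, had 5.50 and 3.24 and was 653 bp from a T2 peak. At Klrb1c, which encodes the NK1.1 antigen, the T1-only region chr6:128770744-128771175 had 7.31 and 4.91.

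Of 35 regions at the 8 genes of the Clec2 ligand family, 0 were T1-only (background 2.22%) and 2 were T2-only (background 6.56%). One, chr6:128653017-128653516 at Clec2h, had 7.58 and 6.46. The other, chr6:128961288-128961525 inside Clec2g, had 4.01 and 5.02 and was 347 bp from a T1 peak. These stood far below the regions at Klrb1b and Klrb1a in the ranking of their lists. The strongest shared region of the receptor genes, chr6:128802819-128803407 between Klrb1c and Klrb1b, had −log10 q of 155 and 88.7 in T1 and 119 and 98.4 in T2. Clec2i, for the ligand Clr-g, had a region in its body, chr6:128890859-128891338, with −log10 q of 23.3 and 17.1 in T1 and 19.1 and 17.4 in T2 and a higher shared percentile in both T1 libraries.

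**Figure D4:**
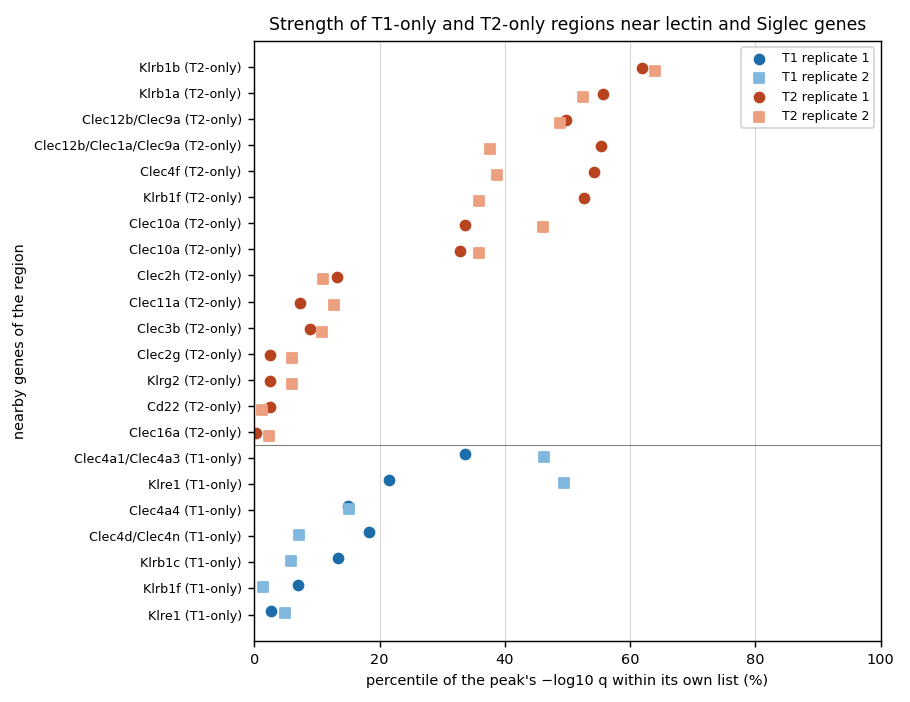
Each row is a T2-only (upper part) or T1-only (lower part) region, named by the genes it was counted for, and the x axis gives the percentile of its peak's −log10 q within that library's whole list. Points are the 2 libraries that hold the region. The percentiles run from 0.330 at Clec16a to 64.1 at Klrb1b for T2-only regions and from 1.46 at Klrb1f to 49.4 at Klre1 for T1-only regions.

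The NKG2 cluster encodes CD94 (Klrd1), the NKG2 receptors that pair with it (Klrc1, Klrc2 and Klrc3) and the activating receptor NKG2D (Klrk1). The cluster held 2 T1-only and 0 T2-only regions among 13, and 9 were shared, where the backgrounds were 2.22%, 6.56% and 58.6%. Klrc1, Klrc2 and Klrc3 had no region. Klre1, whose product pairs with those of Klri1 and Klri2, had 9 regions, 2 of them T1-only and both inside the gene. The first, chr6:129565299-129565605, had −log10 q of 9.80 and 20.1 in T1 replicates 1 and 2, and the second, chr6:129567155-129567589, had 3.92 and 4.39. The T1 libraries thus placed the first region at different ranks. A shared region inside Klri2, chr6:129740106-129740596, ranked lower in T2, with −log10 q of 23.0 and 17.1 in T1 and 4.85 and 9.03 in T2 and shared percentiles of 35.8 and 33.3 in T1 and 0.536 and 7.08 in T2. The region over Klrd1, chr6:129591476-129591962, had −log10 q of 43.6 and 40.2 in T1 and 47.0 and 40.1 in T2. Klrg2 had a weak T2-only region, chr6:38597456-38597917, with 4.01 and 5.02, inside the neighbouring gene Luc7l2.

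Among the Klr genes the shared regions leaned towards T1 when ranked among shared regions. In the whole lists more of them had T2 above than T1 above, as did shared regions near protein-coding genes. Of 32 shared regions, 13 (40.6%) had both T1 libraries above both T2 libraries in shared percentile and 1 (3.12%) the reverse, where the backgrounds were 26.6% and 25.7%. The 1 exception, chr6:128836037-128836720 near Klrb1b, had −log10 q of 12.5 and 8.38 in T1 and 18.0 and 23.9 in T2. Clec genes gave 12 and 18 of 58 and the Siglec genes with Cd22 and Cd33 gave 9 and 11 of 31. These counts carry no test, since the regions share their libraries.

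For the Klr genes, the low count with T2 above depended on having 2 libraries in each group. With T1 replicate 1 dropped, T2 stood above at 13 of 36 regions and T1 at 17. With T1 replicate 2 dropped, these were 7 and 16 of 35. With T2 replicate 1 dropped they were 10 and 16 of 33, and with T2 replicate 2 dropped 6 and 15 of 32. These shares ran from 18.8 to 36.1% for T2 and from 45.7 to 48.5% for T1. Backgrounds under the same omissions were 37.3 to 37.8% for T2 and 37.6 to 38.7% for T1. By percentile in the whole lists, T1 stood above at 7 and T2 at 11 of the 32. The longer T2 lists place shared regions higher there, with backgrounds of 14.3% for T1 and 39.8% for T2. The T1 share was above its background and the T2 share below. NK cell markers (Ncr1, Gzma, Gzmb, Prf1, Nkg7, Eomes, Tbx21, Il2rb and Cd244a) gave 4 shared regions with T1 above and 3 with T2 above among 22. Of their 39 regions, 26, 25, 33 and 29 were present in the 4 libraries, and Ncr1 was without any region. Of the 39, 1 was T1-only (at Il2rb) and 4 were T2-only (at Cd244a, Il2rb, Prf1 and Tbx21), where the backgrounds were 2.22% and 6.56%. The part of NK cells in the result was not tested.

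The Ly49 receptors (Klra genes), which bind MHC class I molecules on NK cells, had the lowest density of regions of the 6 gene clusters measured. Their 11 genes had 8 regions in all, 4 and 5 present in T1 and 7 in each T2 library. Of the 8, 3 were shared and none was T1-only or T2-only, where the backgrounds were 58.6%, 2.22% and 6.56%. The 8 came to 1.32 regions per 100 kb of their windows, where all lectin and Siglec windows had 6.73 and those of protein-coding genes 4.41. No Ly49 promoter held a peak in any library. Klra2, Klra7 and Klra8 had no region, and a region near Klra10, chr6:130287712-130288648, was the strongest, with −log10 q of 29.8 and 21.7 in T1 and 34.4 and 42.1 in T2. Some of these genes resemble each other, and 4 of the 11 promoters were over 80% identical to their closest other member, with a median of 76.0% and a lowest of 53.0%. Reads from stretches that are the same in several genes may not map to 1 place. How the authors treated such reads is not given in the sources used here, and their part in the counts was not tested. The promoters of Klra4 and Klra8 were 86.0% identical, the highest of 1540 pairs of promoters, and are printed as that closest pair.
Klra4, chr6:130067222-130067521, minus strand: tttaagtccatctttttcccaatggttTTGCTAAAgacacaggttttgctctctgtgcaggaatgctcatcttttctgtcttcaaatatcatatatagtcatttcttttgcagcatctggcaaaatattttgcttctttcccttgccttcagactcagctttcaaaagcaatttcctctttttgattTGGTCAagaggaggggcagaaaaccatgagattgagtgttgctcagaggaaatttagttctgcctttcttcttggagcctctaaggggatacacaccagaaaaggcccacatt
Klra8, chr6:130129849-130130148, minus strand: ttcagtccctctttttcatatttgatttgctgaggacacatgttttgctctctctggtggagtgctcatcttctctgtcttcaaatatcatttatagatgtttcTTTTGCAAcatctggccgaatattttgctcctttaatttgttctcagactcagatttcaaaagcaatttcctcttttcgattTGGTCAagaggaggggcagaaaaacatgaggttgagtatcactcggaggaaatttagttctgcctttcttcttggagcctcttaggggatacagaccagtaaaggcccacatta

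The CD33-related Siglecs had the highest density of the 6 clusters. Their cluster on chromosome 7 had 11.8 regions per 100 kb. Of the 28 regions at the 5 genes, 20 were shared and none was T1-only or T2-only, where the backgrounds were 58.6%, 2.22% and 6.56%. Cd33 had a second strong region outside the gene, chr7:43554415-43555198, with −log10 q of 147 and 117 in T1 and 143 and 144 in T2. A further Cd33 region, chr7:43544375-43545053, ranked higher in T1, with −log10 q of 74.4 and 63.6 in T1 and 42.8 and 41.2 in T2 and shared percentiles of 76.8 and 79.4 in T1 and 53.0 and 58.6 in T2.

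Siglece, for an inhibitory Siglec of neutrophils and monocytes, carried neighbouring regions that ranked in opposite directions. The region chr7:43654359-43654861 inside the gene had −log10 q of 51.5 and 47.7 in T1 and 26.7 and 20.7 in T2 and ranked higher in T1. The next one, chr7:43656131-43656664, had −log10 q of 16.7 and 12.2 in T1 and 29.4 and 20.8 in T2 and ranked higher in T2, as did chr7:43671567-43672593, which also lies in Ctu1, with −log10 q of 83.0 and 68.8 in T1 and 111 and 112 in T2. Siglecf, of eosinophils, likewise had 1 shared region higher in T1 and 2 higher in T2.

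Of the conserved Siglecs, Cd22, an inhibitory receptor of B cells, had the only T1-only or T2-only region over a promoter among the 56. This T2-only region, chr7:30879015-30879332, was weak, with −log10 q of 4.01 and 3.24 in T2 replicates 1 and 2, and it was lost when a −log10 q of at least 5 was required. A shared region inside Cd22, chr7:30873073-30873583, also ranked higher in T2, with −log10 q of 12.0 and 8.42 in T1 and 30.8 and 15.7 in T2. The B cell markers Cd79a, Cd79b, Ms4a1, Pax5 and Ebf1 had 43 regions, with 28 and 30 present in T1 and 33 and 32 in T2. Of the 43, 1 was T1-only (at Pax5) and 4 were T2-only (at Cd79b, Ebf1 and Pax5), where the backgrounds were 2.22% and 6.56%. None of these markers was at 0, and their part in the results at Cd22 and Siglecg was not tested. The Cd22 promoter is printed because it is the only one under a T2-only region, and its capitals are a BCL11A match on the reverse strand.
Cd22, chr7:30878979-30879278, minus strand: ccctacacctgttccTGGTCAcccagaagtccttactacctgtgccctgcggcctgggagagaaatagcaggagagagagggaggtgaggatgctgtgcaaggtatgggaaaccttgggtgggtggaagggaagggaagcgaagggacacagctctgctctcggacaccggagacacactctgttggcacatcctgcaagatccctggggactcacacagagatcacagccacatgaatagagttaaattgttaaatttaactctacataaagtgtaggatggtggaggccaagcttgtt

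Siglec1, for the macrophage receptor CD169, and Siglec15, known from osteoclasts, had 8 and 4 regions. Siglec15 had a region inside the gene, chr18:78048332-78048804, with −log10 q of 30.8 and 29.2 in T1 and 52.4 and 41.7 in T2 and a higher shared percentile in both T2 libraries. All 5 shared Siglec1 regions overlapped between the groups.

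Over all 128 shared regions, 38 (29.7%) had both T1 libraries above both T2 libraries in shared percentile and 34 (26.6%) the reverse, close to the backgrounds of 26.6% and 25.7%. By percentile in the whole lists the split was 27 (21.1%, background 14.3%) against 58 (45.3%, background 39.8%). The median shared percentile of the 128 was 48.0 and 44.9 in the T1 libraries and 44.0 and 46.1 in the T2 libraries, a little below the midpoint of all shared regions in each.

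Genes that act with these receptors were also read for open promoters and for regions of either class, where the backgrounds were 56.6% for a promoter open in every library, 2.22% for T1-only and 6.56% for T2-only. The 3 phosphatase genes recruited by ITIM receptors (Ptpn6, Ptpn11 and Inpp5d) all had an open promoter, with 1 T1-only and 2 T2-only regions among 34. Of 16 genes that make, attach or remove sialic acid, the ligand of Siglecs, 10 of 12 promoters were open, with 3 T1-only and 6 T2-only regions among 152. The NKG2D ligand genes, with 1 of 4 promoters open, had 2 T1-only regions at Raet1e and 3 T2-only at H60c, among 24. Ly75 and Pla2r1, the other mannose receptor relatives, had 2 T1-only and 1 T2-only region among 11.

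Progenitor markers were set beside those of other cells: all 7 with a promoter entry (Kit, Cd34, Flt3, Cd48, Gata2, Cebpa and Myb) had a promoter peak in every library, as did 56.6% of protein-coding genes. The same held for 1 of 6 T cell, 1 of 4 macrophage, 1 of 7 neutrophil, 2 of 6 dendritic cell, 5 of 8 NK cell, 0 of 3 B cell and 0 of 5 mast cell, basophil and eosinophil markers.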

How the data were processed

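Open chromatin was measured by ATAC-seq with a Vazyme Hyperactive kit, per the labels' protocols, in 2 T1 and 2 T2 libraries. The submitters' processing notes name Bowtie2, SAMtools, MACS2 and mm10, with no versions or settings given in the sources used here. The authors deposited 1 peak list per library, with peak names that carry 1 prefix per list (WG in T1, MG in T2, which the labels do not explain). Each deposited peak has a whole-number score, a fold over local background (a ratio), a −log10 p, a −log10 q of at least 2 and a summit offset from its start. None is a read count, so depth is unknown, no count model was used and the peak values served only for ranking and filtering in their own list. Longer lists can come from depth or from signal over background.

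Peaks of the autosomes (1 to 19), X and Y were joined over the genome where they shared at least 1 bp. Percentiles used midranks of −log10 q. Gene and promoter positions came from RefSeq tables on GRCm38.p6. Exon and intron positions were not used here. Scripts ran in Python 3.11.15 with pandas 2.3.3, numpy 2.4.6, scipy 1.17.1 and Biopython 1.88, and the procedure was tested on simulated data. Promoter identity is the share of equal columns in a pairwise alignment.

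Genes were named when they had a T1-only or T2-only region, a promoter peak in all 4 libraries, the most regions of their role group, or 1 of the 10 best shared regions. Further genes and regions given as examples were picked with their values in view. The genes, role groups and lists were chosen with earlier results of these data known. Of the genes the rule takes 1, and some genes and counts of the lists, are not reported here. The list of 5 B cell markers was formed after the data were seen. Alternatives were stricter peaks, lists of equal length, peaks covering at least 0.5 of a region, other gene windows, another order of joining, leaving out Clec16a and leaving out each library. Ranking among shared regions was added after the data were seen.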

Additional observations from a re-analysis of the deposited data

How the results depend on the processing

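The alternatives were stricter peaks, a stricter rule of presence, equal list length, a coverage of at least 0.5 of a region and other gene windows. Further ones were peaks chosen before joining, leaving out Clec16a and leaving out each library. T1-only regions (7) numbered 4 when peaks needed a −log10 q of 5, 4 when presence needed 5 and absence no peak at all, 11 at equal list length and 3 in gene bodies alone, and 10 to 16 when a library was left out. T2-only regions (15) numbered 5 in gene bodies alone and 21 to 33 when a library was left out. Of the 15 T2-only regions 8 were kept when peaks needed a −log10 q of 10 and 8 at equal list length, and of the 7 T1-only regions 1 and 5. With the coverage of at least 0.5, 14 of the 15 and 7 of the 7 were kept, and the T2-only region inside Klrb1f was lost. The T2 minus T1 difference of 20.5 regions per library was -1 at equal length, a reversal, and 11 to 29.5 when a library was left out. Genes with at least 1 region numbered 41 when only gene bodies counted, and genes with a promoter peak in every library numbered 10 to 12 when a library was left out. By whole-list percentile, shared regions with T1 above (27) numbered 10 in gene bodies, 16 within 10 kb and 35 to 41 when a library was left out, and those with T2 above (58) numbered 33 at equal length, 29 in gene bodies, 34 among shared regions and 68 to 86 when a library was left out. For the Klr genes, shared regions with T1 above (13 of 32) numbered 4 of 8 in gene bodies, 5 of 17 within 10 kb and 15 to 17 when a library was left out. Within 10 kb the share was thus near the 26.6% found for all protein-coding genes at 20 kb. Those with T2 above (1) numbered 0 when peaks needed a −log10 q of 10, 0 with the coverage of at least 0.5, 0 in gene bodies, 0 within 10 kb, 2 within 50 kb and 6 to 13 when a library was left out. Smaller windows hold fewer regions by construction, and 1 library in place of 2 loosens the rule. Of 22 genes with a T1-only or T2-only region, the balance of the 2 classes reversed at Clec16a alone (-1 at equal length). Many balances moved without reversing. The balance was unchanged at 12 of the 22 genes at equal length, 11 when peaks needed a −log10 q of 10 and 5 in gene bodies. It was 0 at 6, 9 and 16 genes in these settings, and at 1 gene, Klrb1f, in the main setting, where no reversal could be counted. No paired analysis was possible because no model was fitted to these counts of regions and the labels tie the replicate numbers to no shared animal, batch or day. Depth, which is unknown, limits any reading of an absent peak.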
